A study of Rattus norvegicus with 24 samples.

Results

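Cytosolic ribosomal proteins are the protein subunits of the ribosomes that translate the mRNAs of nuclear genes. Their genes were taken by name from the deposited expression tables of cultured rat striatal neurons: names with Rpl or Rps followed by a digit, the stalk proteins Rplp0 to Rplp2, and Rpsa. S6 kinases, whose names begin Rps6k, were left out. The rule took 99 of 32883 genes under 89 names, 60 of the large subunit and 38 of the small subunit. The remaining gene, Rps19bp1, is named for binding a ribosomal protein and is not itself a subunit. Of the 99, 21 had 1 exon, which is the usual form of copies made from a processed mRNA, and 78 had more than 1 exon.

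RNA was extracted from primary striatal neurons of neonatal rats on day 7 in vitro, ribosomal RNA was removed, and stranded libraries were sequenced. Each culture was given DMSO or SKF, an agonist of the dopamine D1 receptor, together with DMSO or a bromodomain inhibitor. Experiment 1 held DMSO with DMSO, DMSO with JQ1, SKF with DMSO and SKF with JQ1, each for 60 min, with replicates numbered 5 and 6. Experiment 2 held DMSO with DMSO, DMSO with iBD2, SKF with DMSO and SKF with iBD2, each for 60 min, with replicates numbered 1 and 2. Experiment 3 repeated the 4 combinations of experiment 1 for 24 h, again with replicates numbered 5 and 6. A group is called here by what it received beyond DMSO. Of the 12 groups 11 had 2 libraries. For SKF plus iBD2 a single library was used and the replicate numbered 2 is not analysed here. The labels give no dose and no rat strain, and they do not state that replicates are independent cultures. The p-values therefore cover only the scatter among the libraries at hand, part or all of which may be technical.

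A ribosome is built from a small subunit, which reads the mRNA, and a large subunit, which joins amino acids, and cells keep the mRNAs of their proteins at high and matched levels. Many of these mRNAs start with a terminal oligopyrimidine tract, a C followed by a run of C and T, through which mTOR signalling controls their translation. In neurons, protein synthesis in the cell body and in dendrites is part of the long-lasting response to activity and dopamine. JQ1 blocks the bromodomains of BET proteins, which bind acetylated histones and aid the release of RNA polymerase II into elongation. The series compared such inhibitors in neurons at rest and after D1 receptor stimulation.

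At genes on which the results turn, 30 bases around the annotated transcription start are given 5′ to 3′. These are 15 bases before the start and 15 from it, with the longest run of C and T in capitals. A capitalised run may lie wholly or partly before the start, so it need not be the terminal tract. The windows of Rps2, Rps10 and Rpl29 lack a C at the start followed by at least 4 further C or T. The sequences are from RefSeq, build GRCr8, which is not the build of the expression tables. The windows of Rps2 (chr10:14251833-14251862, plus strand), Rps10 (chr20:5700730-5700759, minus strand) and Rps15 (chr7:10068101-10068130, minus strand) belong to small-subunit genes that rose most with JQ1. Those of Rplp0 (chr12:46718376-46718405, minus strand) and Rpl10a (chr20:6390518-6390547, plus strand) belong to large-subunit genes that rose. The window of Rpl29 (chr8:115947628-115947657, plus strand) belongs to a gene that did not pass the test with JQ1.
Rps2: CCTCTTCTTTTTCTTCgggaaaacacgtga
Rps10: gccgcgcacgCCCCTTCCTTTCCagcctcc
Rps15: cgctgacaccgCTTCCTTTTCCCagcagcc
Rplp0: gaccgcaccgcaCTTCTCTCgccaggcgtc
Rpl10a: gaaaccttctgCCTTCTTTTCCggttcccg
Rpl29: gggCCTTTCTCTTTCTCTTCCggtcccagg

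Of the 99 genes, 71 matched a RefSeq gene by symbol and chromosome and 55 of these had such a window. A run of at least 7 C or T, read on the strand of the gene, lay in 36 of the 55 windows (65.5%), against 17.9% of 33469 windows of all genes. The motif CTTTC was in 22 (40%) against 3.59%, and on the other strand in 1 (1.82%) against 3.82%. CTCTTTC, which overlaps CTTTC, was in 8 (14.5%) against 0.35%. A C at the annotated start followed by at least 4 further C or T was in 17 (30.9%) against 2.63%. The run in Rpl29 is 18 bases long and that in Rps2 is 16 bases long, the first in a gene that did not pass the test with JQ1 at 24 h and the second in one of the genes that rose most.

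The deposited values were FPKM, fragments per kilobase of transcript scaled to library depth, summed over the transcripts of each gene. Depth ranged from 4.36 to 14.9 gigabases of aligned sequence. Markers of neurons and striatal projection neurons were present (mean DMSO FPKM of Tubb3 529, Gad1 392 and Drd2 31.2). The lowest in that list were Tac1, at 2.65, and the D1 receptor gene Drd1, which was also below Drd2. Endothelial and mural markers ranged from 0.004 for Cldn5 to 8.45 for Tagln, and fibroblast markers from 0.005 for Lum to 5.88 for Fn1. The summed FPKM of 10 astrocyte markers was 146 to 155 in experiment 2 and 335 to 517 in the other experiments. In experiment 3 the summed FPKM of 11 microglia markers was 103 and 81.9 with DMSO, 51.2 and 37.1 with SKF, 17.1 and 12.8 with JQ1, and 3.48 and 1.97 with SKF plus JQ1. In RNA from whole cultures, fewer cells of a type and less RNA per cell cannot be told apart. The mitochondrially encoded share of aligned bases was lowest in experiment 2, at 5.31 to 5.87%. It was 8.05 to 9.79% in experiment 1, and experiment 3 had 8.58 to 10.7%. The BET inhibitor marker Hexim1 rose by 1.23 on the log2 scale with JQ1 at 60 min and by 1.47 at 24 h, and the activity gene Fos rose by 2.03 and 2.20 with SKF at 60 min in experiments 1 and 2.

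Ribosomal protein genes were among the most abundant mRNAs of these cultures. Their median FPKM over the DMSO groups was 90.6, against 7.60 over the 13999 genes tested, and 64 of the 99 were in the top 10% of the tested genes. FPKM is a level per length of annotated transcript, so ranks among genes depend on those lengths and on how reads were shared among copies. The longest transcript of a member ranged from 213 bases for Rpl38 to 5151 for Rpl7. Rps2, a small-subunit protein at the entry of the mRNA channel, was the highest at 501, and Rpsa, the laminin-binding small-subunit protein, at 392, Rpl29 at 363 and Rps25 at 339 were also among the 5 highest. The median was 118 for the small subunit and 80.7 for the large subunit. Genes with 1 exon had a median of 7.27 and held 5.08% of the summed FPKM, genes with more exons a median of 117.

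The low end of the range was made of copies and paralogues. Rpl30l1, Rpl3l and Rplp0l1 had mean DMSO FPKM of 0.0429, 0.0386 and 0.0155 and did not pass the filter on low values, which left 96 genes for the tests. Rpl3l is the paralogue of Rpl3 known from skeletal muscle and heart. Among those tested, Rpl39l at 0.37 and Rpl10l at 0.501, both paralogues known from testis, were the lowest. Rps4y2 followed at 0.804 and Rpl36al at 0.96. Several names stood for more than 1 locus (Rpl21, Rpl32, Rpl35al1, Rpl7a, Rps10, Rps19l2, Rps27a and Rps4x), and the counting could split or share reads among such near-identical copies, so their separate values are uncertain. The spans of 21 members overlap a gene named as a snoRNA, and 12 members overlap a gene on the opposite strand. Use of the strand in counting is not given in these sources. No row was named Rpl22, Rps14, Rps19 or Rps26, and genes under those names were not analysed here. Rpl9, Rpl35a, Rpl37, Rpl38, Rpl39, Rps13 and Rps29 each stood only as a 1-exon locus without a matched RefSeq gene. The parent genes of these loci may therefore not have been measured.

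Levels in experiment 2 differed from the other experiments for single members. Rps27 was at 137 to 160.4 in the 7 libraries of experiment 2 and at 187 to 252 in the 16 others. The 1-exon locus named Rpl38 went the other way, with 40.9 to 46.6 against 24.3 to 33.9. Neither pair of ranges overlapped. With DMSO alone the means in experiments 1, 2 and 3 were 215, 143 and 207 for Rps27 and 29.2, 44.3 and 28.0 for Rpl38. The DMSO groups of experiments 1 and 2 share treatment and time and differ in replicate numbers. The labels do not say what else differs between the experiments, and the cause was not tested. All tests were therefore made within an experiment or as a difference of such effects.

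The 99 genes together made up 2.57 to 2.67% of the nuclear-encoded FPKM with DMSO for 24 h, 2.47 to 2.63% with SKF, 2.90 to 2.93% with JQ1 and 2.99 to 3.06% with SKF plus JQ1. The 4 libraries with JQ1 for 24 h were the highest of all 23, and none of the others exceeded 2.85%. At 60 min the share was 2.65 to 2.69% with DMSO, 2.60 to 2.72% with JQ1, 2.59 to 2.69% with SKF and 2.80 to 2.85% with SKF plus JQ1. In experiment 2 it was 2.46 to 2.55% with DMSO, 2.54 to 2.58% with iBD2, 2.51 to 2.54% with SKF and 2.58% in the lone SKF plus iBD2 library. The share rises or falls only relative to other mRNAs, since the data hold no measure of RNA per cell.

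**Figure D1:**
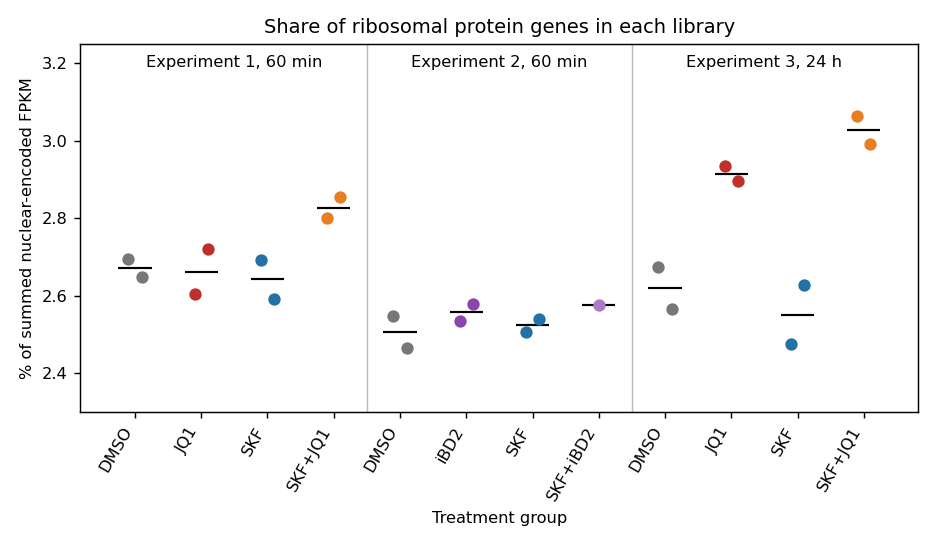
Summed FPKM of the 99 ribosomal protein genes as a percentage of all nuclear-encoded FPKM (vertical axis, which does not start at 0) in each of the 23 libraries, grouped by treatment and experiment; dots are libraries and lines are group means. The 4 libraries with JQ1 for 24 h lie between 2.90 and 3.06%, above the other 19.

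Ribosomal protein mRNAs of both subunits were higher with JQ1 for 24 h than with DMSO, by a median of 0.27 on the log2 scale. Of the 96 genes tested, 69 rose and 0 fell (adjusted p under 0.05, limma, 2 libraries against 2), where 28.1% of all genes tested rose and 28.6% fell. The median of all genes was 0.007. On top of SKF, JQ1 gave 76 risen and 0 fallen members against 27.7% and 28.7% of all genes, with a median of 0.35. Over both backgrounds, 83 rose and 0 fell against 34% and 34.1% of all genes. In 74 of the 96 genes all 4 libraries with JQ1 lay above all 4 without it, against 29.4% of all genes, and in 0 did they lie below, against 29.6%.

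The calls depended on how the libraries were scaled. Each scaling divides a whole library by a single factor, which shifts all genes nearly alike. The displacement of the members from other genes is thus nearly fixed by construction and was not tested by the change of scaling. The values above were divided by a median-ratio size factor, which puts the median gene near 0. With FPKM as deposited the median of all genes shifted to -0.08 and 40 members rose, and scaled to nuclear-encoded FPKM it shifted to -0.13 with 39 members higher and 1, Rpl30, lower by 0.15 on the log2 scale (limma adjusted p = 0.046). The member median minus the all-gene median was 0.267, 0.266 and 0.264 under the 3 scalings. With SKF it was 0.347, 0.347 and 0.344. Of all genes called with JQ1 at 24 h, 49.6%, 34.3% and 25.9% were higher under the same scalings, and 49.2%, 38.1% and 32.2% with SKF.

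**Figure D2:**
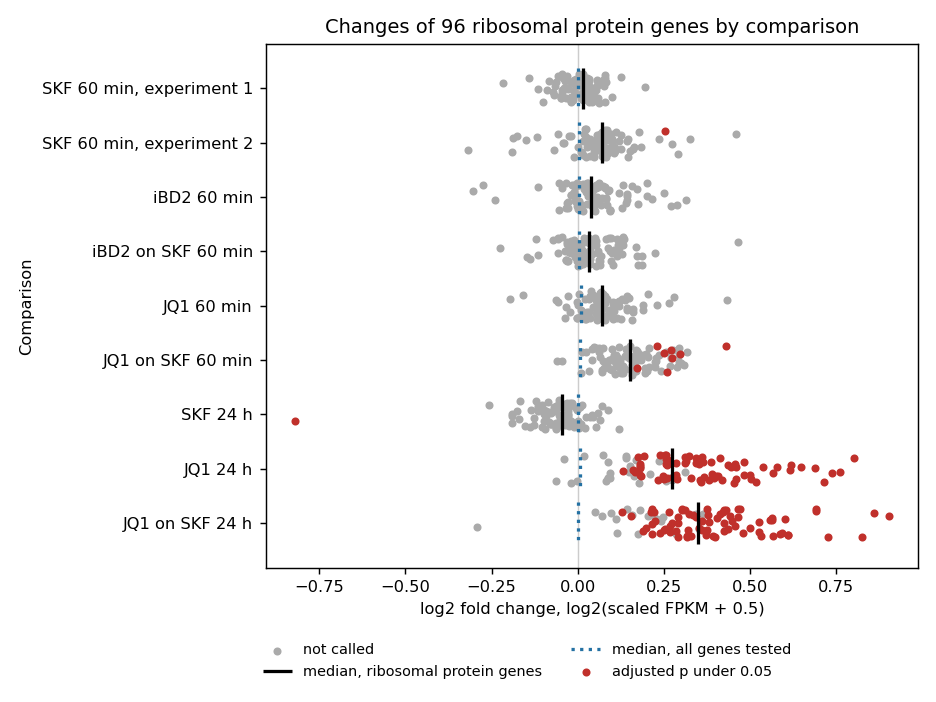
Log2 change of the 96 tested ribosomal protein genes (horizontal axis) in 9 comparisons (vertical axis); each dot is a gene, red where the limma adjusted p is under 0.05, the black line is the median of the members and the blue dotted line the median of all genes tested. The medians are 0.27 and 0.35 with JQ1 at 24 h without and with SKF, and 0.07 with JQ1 alone at 60 min. With SKF alone they are 0.02 and 0.07 at 60 min in experiments 1 and 2, and -0.05 at 24 h.

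The most displaced gene with more than 1 exon was Rps10 on chromosome 20 (chr20:7215774-7219548, minus strand, 4 exons, Rnor_6.0), a small-subunit protein of the ribosome's head. Its FPKM at 24 h was 63.3 and 52.2 with DMSO, 51.7 and 55.3 with SKF, 94.2 and 88.8 with JQ1 and 98.6 and 92.8 with SKF plus JQ1. Every library with JQ1 was above every library without it. The change was 0.76 (SE 0.07) without SKF (limma adjusted p = 8.28e-08) and 0.90 (SE 0.07) with SKF (adjusted p = 1.09e-08). A 1-exon copy, Rps10l1 (chr10:19715275-19715832), changed by 0.80 (SE 0.05) and 0.86 (SE 0.05), and another Rps10 locus on chromosome 6 by 0.74 (SE 0.10) and 0.82 (SE 0.10). These 3 loci may share reads, so they are not 3 separate observations.

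Rps2 (chr10:14088319-14089979, plus strand, 6 exons) had both the highest level and one of the largest changes. Its FPKM at 24 h was 533 and 476 with DMSO, 486 and 496 with SKF, 778 and 739.9 with JQ1 and 789.5 and 759 with SKF plus JQ1. The groups with and without JQ1 did not overlap. The change was 0.69 (SE 0.05) without SKF, a fold of 1.61 (adjusted p = 3.62e-09), and 0.73 (SE 0.05) with SKF (adjusted p = 1.78e-09).

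Rps15 (chr7:12282109-12283608, minus strand), a small-subunit protein near the decoding site, was at 185 and 150.1 with DMSO, 159 and 168 with SKF, 246 and 243 with JQ1 and 258 and 244 with SKF plus JQ1. It rose by 0.65 (SE 0.07) and 0.69 (SE 0.07), again with no overlap. Rps28, a small protein at the mRNA exit, rose by 0.50 (SE 0.06) and 0.56 (SE 0.06), and Rps18l1, a copy named for Rps18, by 0.71 (SE 0.13) and 0.69 (SE 0.13). Over the small subunit, 29 of 38 members rose with a median of 0.26 without SKF, and 31 of 38 with a median of 0.34 with SKF. Rps6, the protein that S6 kinase phosphorylates, rose by 0.26 (SE 0.06) and 0.27 (SE 0.06) from 106 and 95.9 with DMSO to 116 and 109 with JQ1. Rpsa was at 407 and 415 with DMSO, 379 and 388 with SKF, 450.5 and 421 with JQ1 and 437 and 425 with SKF plus JQ1, a rise of 0.18 (SE 0.05) and 0.24 (SE 0.05).

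In the large subunit 40 of 57 members rose with a median of 0.31 without SKF, and 45 of 57 with a median of 0.35 with SKF. The loci of Rpl7a were the most displaced among them: the one at chr3:4867233-4869656 was at 121 and 115 with DMSO, 118 and 124 with SKF, 174 and 164 with JQ1 and 181 and 172 with SKF plus JQ1. Its change was 0.62 (SE 0.05) and 0.61 (SE 0.05). A near-identical locus at chr3:5459160-5461583 changed by 0.62 and 0.61, and the pair may be a single gene counted at each locus. The span of each overlaps 4 genes named as snoRNAs. Rpl10a was at 140.3 and 125 with DMSO, 127 and 132 with SKF, 191 and 177 with JQ1 and 178 and 178 with SKF plus JQ1, and changed by 0.57 (SE 0.06) and 0.53 (SE 0.06).

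The stalk of the large subunit, which recruits translation factors that split GTP, is formed by Rplp0 with Rplp1 and Rplp2. Rplp0 (chr12:46791528-46794797) was at 299 and 270.5 with DMSO, 272 and 271 with SKF, 366 and 346 with JQ1 and 371 and 347 with SKF plus JQ1, and rose by 0.42 (SE 0.05) and 0.47 (SE 0.05). Rplp1 was at 242 and 246, 238 and 236, 311 and 286 and 306 and 303 in the same order and rose by 0.39 (SE 0.07) and 0.43 (SE 0.07). For both genes every library with JQ1 lay above every library without it. Rplp2 was at 26.0 and 21.6 with DMSO, 20.3 and 21.4 with SKF, 22.99 and 21.9 with JQ1 and 24.4 and 22.0 with SKF plus JQ1, and these ranges overlapped. Its change was 0.02 (SE 0.08) without SKF (adjusted p = 0.861) and 0.22 (SE 0.08) with SKF (adjusted p = 0.0343), and the difference between these was not past the threshold (0.20, adjusted p = 0.891).

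Rpl5 and Rpl11, which with 5S rRNA bind the p53 regulator Mdm2 when ribosome assembly fails, both rose. Rpl5 was at 126 and 107 with DMSO, 107 and 109.7 with SKF, 152 and 147 with JQ1 and 158 and 148 with SKF plus JQ1, with no overlap between libraries with and without JQ1. It changed by 0.46 (SE 0.06) and 0.56 (SE 0.06). Rpl11 was at 170.3 and 157, 163 and 158, 173 and 173 and 189 and 166 in the same order, with overlap on this unscaled level, and changed by 0.18 (SE 0.05) and 0.21 (SE 0.05). Rpl3, at the peptidyl transferase centre, rose by 0.23 (SE 0.06) and 0.27 (SE 0.06). Rpl7 rose by 0.39 and 0.44, Rpl36a by 0.35 and 0.35, Rps4x on the X chromosome by 0.24 and 0.38, and Rps27 by 0.25 and 0.37.

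Rps27a encodes ubiquitin fused to a ribosomal protein. Its 5-exon locus on chromosome 14 rose by 0.17 (SE 0.07) and 0.22 (SE 0.07), and its 1-exon locus on chromosome 5 did not pass the test (0.09 and 0.14). Rpl10, which joins the large subunit late, did not pass without SKF (0.09, adjusted p = 0.294) and rose with SKF (0.27, adjusted p = 0.00461). The difference of 0.18 between these effects had an adjusted p of 0.887.

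**Figure D3:**
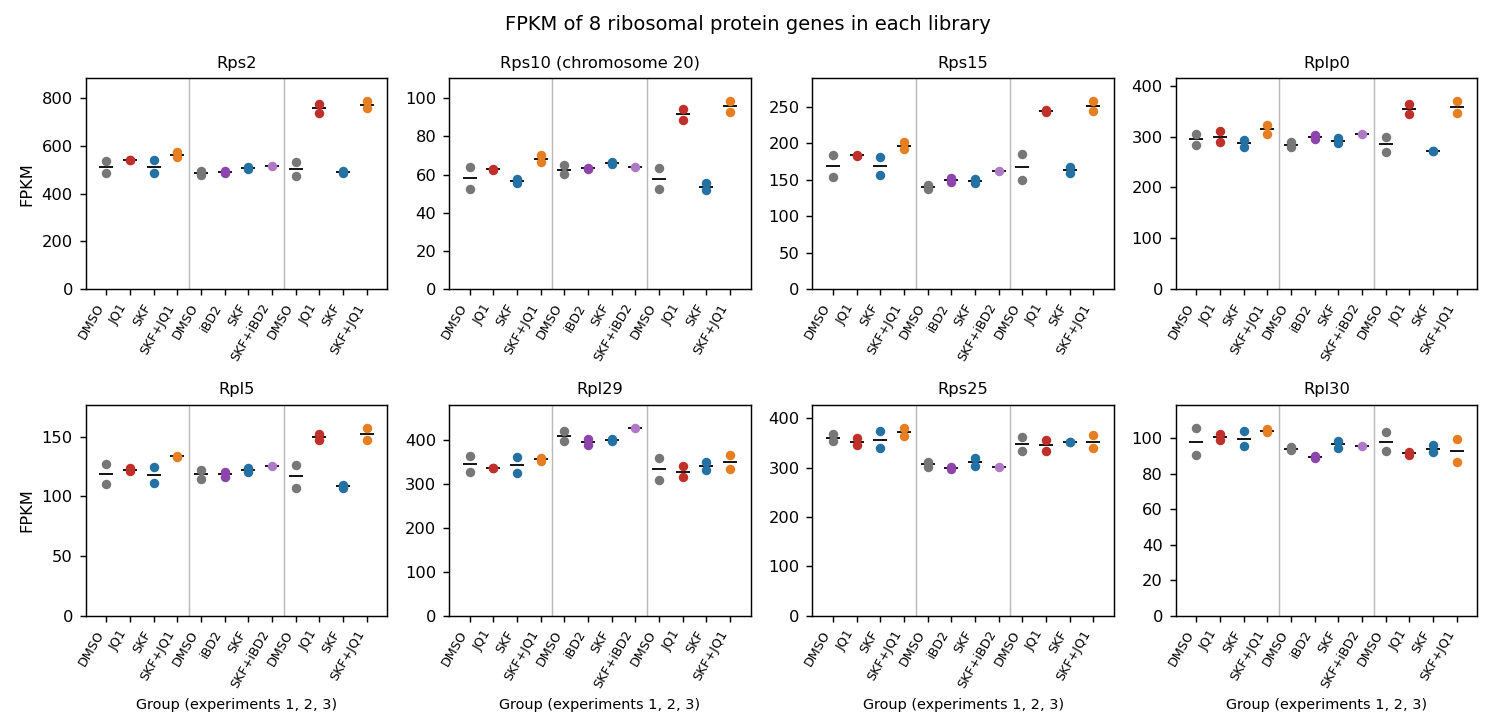
FPKM as deposited (vertical axis, a separate scale for each gene) of 8 ribosomal protein genes in every library, by group, with vertical lines between experiments 1, 2 and 3; dots are libraries and short lines are group means. Rps2, Rps10 on chromosome 20, Rps15, Rplp0 and Rpl5 stand higher in the 4 libraries with JQ1 for 24 h than in the other libraries of experiment 3, while Rpl29, Rps25 and Rpl30 overlap between them.

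A minority of the family did not pass the test in either background at 24 h: 19 of 96. Of these 19, 10 had 1 exon and 8 had a DMSO FPKM below 5, where the error is larger. Others were abundant. Rpl30 (chr7:73213581-73216251) was at 104 and 92.9 with DMSO, 92.4 and 96.01 with SKF, 92.6 and 90.5 with JQ1 and 99.7 and 86.5 with SKF plus JQ1, a change of -0.003 with a 95% interval of -0.13 to 0.12. Rpl29 was at 359 and 308, 331 and 349, 341 and 315 and 367 and 335 in the same order, a change of 0.07 with an interval of -0.05 to 0.20. Rps25, which certain viral and cellular internal ribosome entry sites need, was at 363 and 334, 353 and 353, 357 and 335 and 365 and 340.4, a change of 0.09 with an interval of -0.02 to 0.19. The intervals for Rpl30, Rpl29 and Rps25 lie below the changes of Rps2, Rps10 and Rps15.

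Of the paralogues named for their role, 7 were tested, and 4 of these did not pass in either background. They were Rpl10l (-0.06 and 0.43), Rpl39l (0.24 and 0.36), Rps27l (-0.02 and 0.24) and Rps4y2 (-0.04 and -0.29). The locus named Rpl38, after a protein with a known part in translating Hox mRNAs, had log2 differences of 0.09 and 0.25 and was not called. It has 1 exon, the usual form of a processed copy, and no matched RefSeq gene. The parent gene may therefore not have been measured. Rps19bp1 was not called either (0.27 and 0.24). Rpl22l1 (0.09 without SKF, adjusted p = 0.465) and Rpl7l1 (0.14, adjusted p = 0.057) rose with SKF present, by 0.29 and 0.21. Rpl36al rose without SKF (0.54, adjusted p = 0.0199) and was not called with it (0.35, adjusted p = 0.116). Other members whose names mark them as copies rose in both backgrounds, among them the 1-exon loci Rps10l1 and Rps18l1, given above. Both loci of Rps19l2 also rose (each by 0.26 and 0.42). Each of these has 6 exons, unlike a processed copy, and no row was named Rps19. Their name therefore does not settle whether they are copies.

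Members with 1 exon were called less often, 8 of 20 without SKF, than members with more exons, 61 of 76, while their medians were close at 0.26 and 0.28; this difference in share was not tested. Within the family the size of the change with JQ1 at 24 h bore little relation to the level, transcript length or genomic span of the gene. Spearman's rho across the 96 genes was -0.08 with DMSO level, -0.005 with transcript length and -0.06 with span, a description across genes that share libraries. The members are short genes, with a median span of 2292 bases against 19590 for all genes tested. Of the 96, 82 fell in the class of the shortest 2801 tested genes, with spans of 203 to 4765 bases, in which 30.6% rose and 20.1% fell without SKF with a median of 0.08.

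These sequence features around the start were also set beside the change. Over both backgrounds at 24 h the median change was 0.31 in the 36 genes with a run of at least 7 C or T and 0.26 in the 18 without it. It was 0.30 in 22 genes with CTTTC and 0.30 in 32 without. It was 0.36 in 17 genes with a C and at least 4 further C or T from the start and 0.29 in 37 without. The ranges overlapped in all 3 splits, for example 0.09 to 0.83 with the run and 0.11 to 0.54 without it.

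No member's change with JQ1 at 24 h differed with SKF beyond the threshold of the test. Of the 69 genes that rose with JQ1 at 24 h without SKF, 68 (98.6%) also rose with SKF, and they were 89.5% of the 76 that rose with it. The 2 comparisons share no library. Across the 96 members the 2 sets of changes had a Pearson correlation of 0.88 and Spearman's rho of 0.87, and over all 13999 genes Pearson's r was 0.91, a description across genes that share libraries within each comparison. The interaction, the JQ1 effect with SKF minus that without, was past the threshold for 0 of 96 members in limma, against 0.0429% of all genes, and 0 had an unadjusted p under 0.05. Its median was 0.05 and the median half-width of a member's 95% interval, not adjusted over genes, was 0.20. Differences below that, and some above it, could be missed here. The smallest p was that of Rps4x on the X chromosome (0.14, 95% interval -0.02 to 0.29, adjusted p = 0.879), followed by that of Rpl10l (0.49, adjusted p = 0.879).

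**Figure D4:**
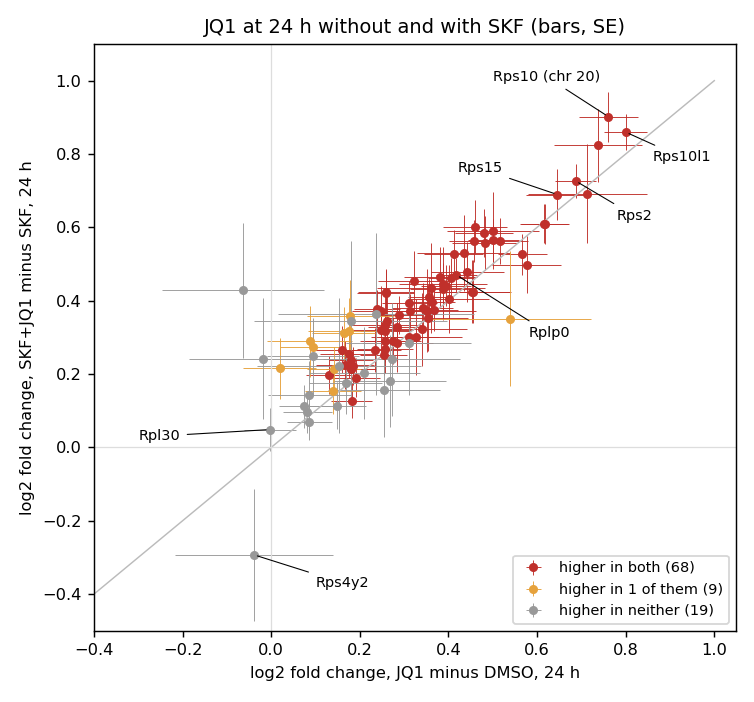
Log2 change of each of the 96 tested genes with JQ1 at 24 h without SKF (horizontal axis) and with SKF (vertical axis), with standard errors as bars; colours give whether the adjusted p was under 0.05 in both comparisons (68 genes), in 1 of them (9) or in neither (19). Most genes lie to the upper right of 0 near the diagonal, with Rps10l1 and Rps10 on chromosome 20 farthest out.

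Other genes of the translation machinery moved with JQ1 at 24 h without SKF, with smaller medians. Of all genes tested 28.1% rose and 28.6% fell there under median-ratio scaling, the shares to set beside the list counts below. Both other scalings shift the changes of all genes downward together, which moves these counts. The distance of each list's median from the all-gene median is therefore given beside them, in the order median-ratio, FPKM as deposited and nuclear-encoded FPKM. Scaling leaves this distance nearly unchanged by construction, so its steadiness is no test of the result. Of 39 translation factors and ribosome-associated genes, 23 rose and 4 fell with JQ1 at 24 h, with a median of 0.21. They included Pabpc1, the poly(A)-binding protein, at 0.61, Rack1, a ribosome-bound scaffold, at 0.54 and Eef2, the translocation factor, at 0.52, while Hnrnpa1, an RNA-binding protein, changed by -0.91. The counts were 12 higher and 6 lower with FPKM as deposited and 6 and 6 when scaled to nuclear-encoded FPKM, while the list median minus the all-gene median was 0.198, 0.190 and 0.183 under the 3 scalings. Of 44 ribosome biogenesis genes, 19 rose and 6 fell with a median of 0.10, including nucleolin (Ncl) at 0.55, the helicase Ddx21 at 0.48 and the small-subunit export factor Ltv1 at -0.75. The counts were 9 higher and 11 lower with FPKM as deposited and 7 and 14 when scaled to nuclear-encoded FPKM, and the distance from the all-gene median was 0.098, 0.098 and 0.096.

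Of 19 genes of RNA polymerase I, which makes the large rRNAs, and its factors, 8 rose and 1 fell with a median of 0.15, including Taf1d at 0.77 and the subunit Polr1d at 0.65. Scaled to nuclear-encoded FPKM, 5 were higher and 3 lower, and the distance from the all-gene median was 0.148, 0.162 and 0.171 under the 3 scalings. Of 25 S6 kinase and mTOR genes, 10 rose and 2 fell with a median of 0.11. Sesn2, a restraint on mTOR complex activity, was at 0.81 and Rps6ka4, a stress-activated kinase, at -0.92. The counts became 5 and 3 with FPKM as deposited and 3 and 3 when scaled to nuclear-encoded FPKM, with distances of 0.099, 0.0915 and 0.086. Of 13 genes of the Myc and Max network, 6 rose and 2 fell, Mxi1 being at 0.37 and Myc itself at -0.38 after a change of -1.29 at 60 min. In that list the split became 3 and 3 with FPKM as deposited and 1 and 4 when scaled to nuclear-encoded FPKM, with distances of 0.059, 0.055 and 0.052.

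Genes of other large complexes were divided between rises and falls. Of 74 mitochondrial ribosomal protein genes 21 rose and 19 fell, near the shares of all genes (28.1% and 28.6%), with a median of -0.01. Among them Mrpl17 was at 0.67 and Mrpl37 at -0.55. The split became 19 and 30 with FPKM as deposited and 16 and 35 when scaled to nuclear-encoded FPKM, and the distance from the all-gene median was -0.021, -0.026 and -0.029. Of 95 nuclear genes of the respiratory chain and ATP synthase 14 rose and 31 fell with a median of -0.05, against 28.1% and 28.6% of all genes. The counts were 9 and 40 with FPKM as deposited and 7 and 50 when scaled to nuclear-encoded FPKM, with distances of -0.052, -0.060 and -0.066. Of 37 proteasome genes 10 rose, near the all-gene share of 28.1%, and 4 fell, with a median of 0.04. The counts were 6 and 8 with FPKM as deposited and 4 and 15 when scaled to nuclear-encoded FPKM, with distances of 0.038, 0.032 and 0.027.

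Markers of other cells moved as well. All 11 microglia markers fell with JQ1 at 24 h, with a median of -1.99, and all 11 fell on top of SKF with a median of -1.38. Of 10 astrocyte markers 0 rose and 4 fell without SKF, and 4 rose and 2 fell with it. Without SKF, of 9 oligodendrocyte lineage markers tested 3 rose and 4 fell, of 4 fibroblast markers tested 0 rose and 1 fell, and of 2 endothelial and mural markers tested 0 rose or fell. Of 18 neuronal markers 1 rose and 4 fell. Of all genes tested 28.1% rose and 28.6% fell with JQ1 at 24 h without SKF, and 27.7% and 28.7% with it. The summed FPKM of the neuronal markers was 3085 and 3297 with DMSO, 3157 and 3215 with SKF, 2729 and 2896 with JQ1, and 2533 and 2812 with SKF plus JQ1, lower in every library with JQ1. The mitochondrially encoded share of aligned bases was 8.58 and 9.59% with DMSO and 10.7 and 10.4% with JQ1. With SKF alone at 24 h, 8 of the 11 microglia markers fell with a median of -0.96, and the ribosomal protein median was -0.05. The part of the shifts with JQ1 in the rise of the ribosomal protein genes was not tested.

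**Figure D5:**
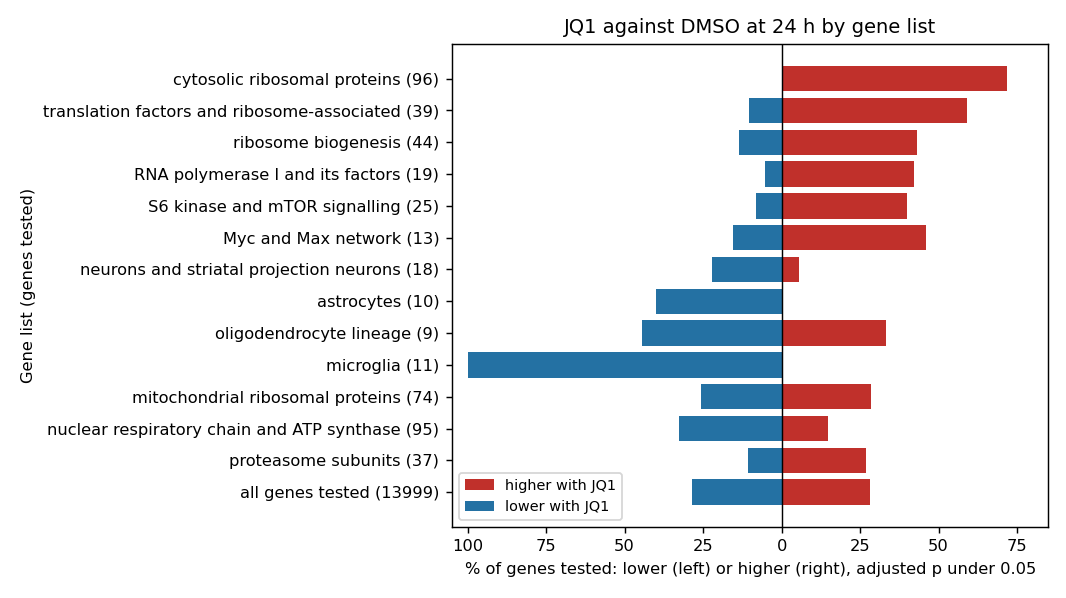
Percentage of tested genes that rose (right) or fell (left) with JQ1 at 24 h without SKF (limma adjusted p under 0.05) in the ribosomal protein genes and in each other gene list, with all genes tested for comparison. Ribosomal protein genes have 69 of 96 risen and 0 fallen, and microglia markers 0 risen and 11 of 11 fallen.

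At 60 min fewer members changed with JQ1. Without SKF 0 of 96 members were past the threshold in limma, against 1.86% of all genes risen and 2.54% fallen. At an unadjusted p under 0.05 there were 7 members, all higher, and the median was 0.07. On top of SKF 8 rose and 0 fell, against 2.74% and 3.81%, with a median of 0.15, and 51 had an unadjusted p under 0.05, all higher. With both backgrounds together 15 rose and 0 fell, against 4.73% and 6.57%, with a median of 0.10. In 13 of 96 genes all 4 libraries with JQ1 lay above all 4 without, against 6.39% of all genes, and in 0 below, against 7.14%.

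These counts rested on single libraries and on the scaling. Over both backgrounds the 15 became 43 without replicate 5 of DMSO at 60 min and 31 without either 24 h DMSO library. It became 3 and 9 without replicates 5 and 6 of SKF plus JQ1, 4 without replicate 6 of SKF, 8 and 5 without replicates 5 and 6 of JQ1, and 5 without replicate 6 of DMSO. It became 2 with FPKM as deposited. Of all genes called over both backgrounds at 60 min, 41.8% were higher, 31.5% with FPKM as deposited and 24.9% scaled to nuclear-encoded FPKM. The 8 on top of SKF became 0 and 2 without replicates 5 and 6 of SKF plus JQ1, 1 without replicate 6 of SKF, 18 without either 60 min DMSO library of experiment 1, and 19 without either 24 h DMSO library. It stayed at 8 without the SKF plus iBD2 library and was 4 to 6 without any one of the others. The 0 without SKF became 4 without replicate 5 of DMSO, and 1 without either SKF library of experiment 1 or either 24 h DMSO library.

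Rps21, a small-subunit protein, had the smallest p at 60 min over both backgrounds. Its FPKM was 23.5 and 21.2 with DMSO, 21.7 and 24.2 with SKF, 27.0 and 26.4 with JQ1 and 28.1 and 26.6 with SKF plus JQ1. It rose by 0.27 (SE 0.06, limma adjusted p = 0.00354). Rps10 on chromosome 20 was at 63.9 and 52.6, 57.8 and 55.4, 62.4 and 63.0 and 70.2 and 66.5 in the same order and rose by 0.21 (SE 0.05, adjusted p = 0.00721). The replicates of DMSO were as far apart as the groups on this unscaled level. Rpl3 rose by 0.18, Rps10l1 by 0.14 and Rps15 by 0.19 over both backgrounds. On top of SKF the genes of smallest p included Rpl3 (0.26, SE 0.06, adjusted p = 0.0121), Rps10 on chromosome 20 (0.27), Rps20 (0.23) and Rpl32 on chromosome 4 (0.30). The interaction of SKF with JQ1 at 60 min was past the threshold for 0 of 96 members in limma, against 0.00714% of all genes, with 3 at an unadjusted p under 0.05 and a median of 0.08. Among the 2 genes of smallest p was Rpl34 (0.18, adjusted p = 0.999).

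For many members the change with JQ1 was larger at 24 h than at 60 min. The difference between the times, each taken against the DMSO group of its own experiment, was past the threshold for 38 of 96 members, all higher at 24 h, against 17% of all genes higher and 19.7% lower, with a median of 0.22. For Rps10l1 the effect was 0.80 at 24 h and 0.12 at 60 min, a difference of 0.69 (SE 0.07, adjusted p = 1.61e-06). For Rps2 it was 0.69 and 0.11, a difference of 0.58 (SE 0.07, adjusted p = 5.56e-06). The loci of Rpl7a and Rps10 on chromosome 20 came next, with differences of 0.55, 0.55 and 0.62. The times are separate experiments, so time and experiment cannot be told apart. The count was 23 without replicate 5 of JQ1 at 24 h, 24 without replicate 6 of DMSO at 24 h, 25 without replicate 5 of JQ1 at 60 min, and 18 with FPKM as deposited. Of all genes called for this difference 46.3% were higher, 31.8% with FPKM as deposited and 26.7% scaled to nuclear-encoded FPKM.

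With iBD2 at 60 min no member passed the threshold. In limma 0 of 96 rose or fell, against 0.171% of all genes risen and 0% fallen, and 7 had an unadjusted p under 0.05, all higher, with a median of 0.04. Rps10l1 was nearest to the threshold, with FPKM of 25.8 and 26.8 with DMSO, 29.9 and 30.8 with iBD2, 30.2 and 30.7 with SKF and 27.5 with SKF plus iBD2. Its change was 0.25 (SE 0.05, adjusted p = 0.0503). Rps21 had a log2 difference of 0.29 (SE 0.08, adjusted p = 0.365) and Rps28 one of 0.20 (SE 0.06, adjusted p = 0.412). The count was 1 without either SKF plus JQ1 library of experiment 1 and without the SKF plus iBD2 library. On top of SKF, with the lone library assumed to vary like the other groups, 0 of 96 passed, against 0.0143% and 0.00714% of all genes, with 2 at an unadjusted p under 0.05 and a median of 0.03. The smallest p there were those of Rps7 (0.17) and Rps10l1 (-0.15). The interaction of SKF with iBD2 passed for 0 of 96 against 0.0143% of all genes, with 4 at an unadjusted p under 0.05 and a median of -0.02. Rps10l1 had the smallest p (-0.40, SE 0.08, adjusted p = 0.411), followed by Rps27 (-0.30).

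JQ1 and iBD2 were both applied for 60 min, at doses the labels do not give, in separate experiments, so the compounds were compared as a difference of effects. The difference passed for 0 of 96 members in limma, against 0.536% of all genes higher and 0.371% lower, and 0 had an unadjusted p under 0.05. Its median was 0.03 and the median half-width of a member's 95% interval was 0.20. For Rps10l1 the difference was -0.14 with an interval of -0.28 to 0.01, for Rpl22l1 0.24 with an interval of -0.04 to 0.53. Such intervals leave room for differences as large as the 60 min changes themselves. Hexim1 changed by 1.23 with JQ1 and by 0.52 with iBD2, a difference of 0.71 (limma adjusted p = 0.00785).

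D1 receptor stimulation by itself changed few of these genes. With SKF for 60 min in experiment 1, 0 of 96 passed in limma, against 1.58% of all genes risen and 0.136% fallen, with 1 at an unadjusted p under 0.05 and a median of 0.02. Rpl34, at -0.12 (adjusted p = 0.578), was among the 2 genes of smallest p. In experiment 2 Rps10l1 rose by 0.25 (SE 0.05, adjusted p = 0.00547) and 0 fell, against 2.02% and 0.3% of all genes, with 11 at an unadjusted p under 0.05 and a median of 0.07. In experiment 1 its change was 0.03, and its call in experiment 2 was lost with FPKM as deposited, with limma voom, and without replicate 1 of DMSO or replicate 2 of SKF of that experiment.

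With SKF for 24 h Rpl10l fell and 0 members rose, against 0.857% of all genes fallen and 0.636% risen. Rpl10l, a 1-exon gene, was at 0.805 and 0.61 with DMSO, 0.196 and 0.162 with SKF, 0.486 and 0.746 with JQ1 and 0.473 and 0.323 with SKF plus JQ1, levels near those of the lowest genes tested. Its change was -0.82 (SE 0.18, limma adjusted p = 0.0293). It was not called when any of the 4 libraries compared was left out, with adjusted p from 0.0691 to 0.279. Without replicate 6 of DMSO 4 other members fell, and without replicate 5 of DMSO or either SKF library 0 did. At an unadjusted p under 0.05 there were 7 members, all lower, and the median was -0.05. The SKF effect at 24 h minus that at 60 min passed for 0 of 96, against 0.493% of all genes higher and 1.96% lower, with 12 at an unadjusted p under 0.05, all lower at 24 h, and a median of -0.09. The count was 1 without replicate 6 of DMSO at 60 min in experiment 1 and 4 without replicate 6 of DMSO at 24 h. The smallest p were those of Rpl10l (-0.78, adjusted p = 0.0921) and the Rps19l2 locus on chromosome 9 (-0.25, adjusted p = 0.117).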

How the data were processed

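RNA-seq of 23 libraries was used. The deposited tables give FPKM per transcript, and coverage (signal), the mean reads per base, both computed by the authors. The tools StringTie, STAR, DESeq2, Trim Galore and FastQC and the build Rnor_6.0 are listed, without versions, per the submitters' processing notes. Here gene sums of FPKM were scaled by median-ratio size factors (0.943 to 1.061), and 0.5 was added before taking log2, a scale that understates changes of low genes. A gene was tested where 2 or more libraries reached 0.5 FPKM and its longest transcript had 200 bases or more. In R 4.3.3, limma 3.58.1 (trend, robust, 11 residual degrees of freedom) fitted a mean for each group over every library, and the script was tested on simulated data. Tests were two-sided contrasts, with Benjamini-Hochberg adjustment over 13999 genes and a threshold of 0.05. Aligned bases were computed from coverage and FPKM.

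Members and gene lists were chosen with earlier results of these data known. Each comparison names up to 5 called members per direction by smallest p, or, where none was called, the 2 of smallest p. Also named are the 5 highest and lowest members by DMSO FPKM, members chosen by role and their paralogues, up to 4 called genes of each other list, and Myc, Hexim1 and Fos. A few members that the rule takes are not reported here. Rpl30, and at 24 h Rps15, Rps28, Rps18l1, Rps19l2, Rpl10a and Rps10 on chromosome 6, were named after their values were seen, as was Rps28 with iBD2. Alternatives were FPKM as deposited, scaling to nuclear-encoded FPKM, pseudocounts of 0.1 and 1, no filter, a replicate block, separate fits by experiment, limma voom on estimated reads, members with more than 1 exon, and each of the 23 libraries left out.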

Additional observations from a re-analysis of the deposited data

Results flagged for a closer look

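The difference between the JQ1 effect at 24 h and at 60 min was tested as a contrast of the 2 effects, and 38 ribosomal protein genes passed (limma adjusted p under 0.05), all with a larger value at 24 h. Among these the named members were Rps10l1 with a log2 difference of 0.69, Rps10 on chromosome 20 with 0.62, Rps2 with 0.58, and the loci of Rpl7a at 5459160 and 4867233 on chromosome 3 with 0.55 each. Each effect was measured in 2 libraries against 2. The 3 loci of Rps10 and Rps10l1, and the pair of Rpl7a loci, may share reads.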

How the results depend on the processing

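Counts of ribosomal protein genes past the threshold kept within 1.5 times of the reported value under every alternative run for JQ1 on SKF at 24 h and for JQ1 at 24 h over both backgrounds. Among the other gene lists with JQ1 at 24 h, scaling to nuclear-encoded FPKM turned the medians of ribosome biogenesis to -0.03, of S6 kinase and mTOR signalling to -0.04, of the Myc and Max network to -0.08 and of the proteasome to -0.10, with all genes at -0.13. Counts that moved further are given by setting. With FPKM as deposited the counts were 0 for SKF at 60 min in experiment 2, 0 for JQ1 on SKF at 60 min, 2 for JQ1 at 60 min over both backgrounds, 40 for JQ1 at 24 h and 18 for JQ1 at 24 h minus 60 min. Scaled to nuclear-encoded FPKM they were 4 for JQ1 on SKF at 60 min, 3 for JQ1 at 60 min over both backgrounds, 40 for JQ1 at 24 h (39 higher and 1 lower) and 22 for JQ1 at 24 h minus 60 min. With each experiment alone they were 2 for JQ1 on SKF at 60 min, 8 over both backgrounds and 0 for SKF at 24 h. With no filter they were 1, 6 and 0 for those, and 1 for SKF by iBD2. The pseudocount of 0.1 gave 1 for iBD2, limma voom gave 0 for SKF at 60 min in experiment 2, and members with more than 1 exon gave 0 for that and 0 for SKF at 24 h.

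Same-numbered libraries deviated together with correlations of -0.27 to 0.37 across genes. Each value rests on the 2 libraries of each group, so whether the numbers pair libraries is not settled, and the labels do not say. With a replicate block the counts were 13 for JQ1 on SKF at 60 min, 23 over both backgrounds, 1 for iBD2, 1 for SKF at 24 h minus 60 min and 69 for JQ1 at 24 h. With 1 library left out at a time the counts ran from 0 to 1 for SKF at 60 min in experiment 2, 0 to 4 for JQ1 at 60 min, 0 to 19 for JQ1 on SKF at 60 min, 3 to 43 over both backgrounds, 0 to 1 for iBD2, 0 to 4 for SKF at 24 h, 49 to 75 for JQ1 at 24 h, 63 to 80 for JQ1 on SKF at 24 h, 75 to 86 over both, 23 to 49 for JQ1 at 24 h minus 60 min and 0 to 4 for SKF at 24 h minus 60 min, and stayed at 0 for SKF in experiment 1, the 3 interactions of SKF with JQ1 or iBD2, iBD2 on SKF and JQ1 minus iBD2. Apart from the smaller sets of genes or libraries by construction, the cause was not tested. With 2 libraries in a group, the median half-width of a 95% interval, not adjusted over genes, was about 0.14 on the log2 scale. Changes above it could also miss the threshold, such as that of Rps21 with iBD2 at 60 min (0.29, limma adjusted p = 0.365).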
